A study of Mus musculus with 4 samples.

Results

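Trabecular ventricular cardiomyocytes were taken from mouse hearts at E10.5 as barcodes that combined a ventricular sarcomere profile with abundant *Nppa*. A barcode was a member when it had at least 1500 genes, at most 10% mitochondrial UMIs (unique molecular identifiers, each standing for 1 captured transcript), *Tnnt2* at 20 or more, *Ttn* at 10 or more, *Myl2* at 10 or more and *Nppa* at 50 or more CP10K (UMIs per 10000 UMIs of the cell). Members also had *Pecam1*, *Cdh5* and *Ecscr* summing to under 2 CP10K, at most 1 UMI of *Shox2* and *Bmp2* together, and at most 1 UMI of *Bmp4* and *Mybpc1* together. These gates left 1301 members among 6490 ventricular cardiomyocytes, 30415 barcodes that passed the cell filter and 50436 barcodes in all. The 3595 ventricular cells with *Nppa* under 10 CP10K, called low-*Nppa* below, passed every other gate and served as the comparison, and 1594 cells lay between the *Nppa* limits.

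The 4 libraries were 2 controls (Tie2flfl, floxed *Tie2* with no Cre named), numbered 5 and 7, and 2 *Tie2-cko* libraries (Nfatcre-Tie2flfl), numbered 6 and 8. All of them carry the floxed *Tie2* alleles and all came from E10.5 embryos. *Nfatc1Cre* acts in the endocardium, the inner cell layer of the heart, so the cardiomyocytes described here are neighbours of the mutant cells and are not themselves the target of the deletion. By the study's methods, 2 hearts of each genotype were analysed, with littermates sequenced in a common lane. The sources used here do not tie a heart to a library or say which control shares a lane with which *Tie2-cko* library, so p-values measure the spread between these 4 libraries only. They held 259775540, 222270938, 169361996 and 210062861 UMIs in libraries 5, 6, 7 and 8.

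Trabeculae are the muscular ridges that grow from the ventricular wall into the lumen, covered by endocardium. Their growth depends on signals exchanged between the endocardium and the myocardium, among them neuregulin received by ErbB receptors, Notch signalling and BMP10, and on the matrix between the layers. Trabecular cardiomyocytes are known for natriuretic peptide expression, slower division and earlier maturation than the compact wall, and part of them later contributes to the ventricular conduction system.

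*Nppa* and *Nppb*, which code for the atrial and brain natriuretic peptides, are neighbouring genes on chromosome 4 (mm10), *Nppa* at chr4:148000722-148002079 and *Nppb* at chr4:147985788-147987205, both on the plus strand with 13516 bases between them. *Bmp10*, a ligand made by trabecular myocardium that keeps it growing, lies at chr6:87428994-87437677. The promoters of these 3 genes are shown because their transcripts were among those most unlike in the classes, together with that of *Hey2*, a Notch-related repressor of the compact wall at chr10:30832359-30842801 on the minus strand, which went the other way. Each runs 5′ to 3′ along the gene from 250 bases before to 50 after the RefSeq start (GRCm38.p6). Capitals mark matches to motifs searched on both strands. The T-box site of cardiac activators and repressors was searched as GGTGTG. The site of the cardiac homeodomain factor NKX2-5 was searched as TNAAGTG. Sites of the GATA factors were searched as AGATAA, and those of TEAD factors, the partners of YAP, as GGAATG. The site of RBPJ, the Notch effector, was searched as GTGGGAA, and the CArG box of serum response factor by its usual pattern. The TATA box was searched as TATAAA on the strand of the gene alone.
Nppa, chr4:148000472-148000771: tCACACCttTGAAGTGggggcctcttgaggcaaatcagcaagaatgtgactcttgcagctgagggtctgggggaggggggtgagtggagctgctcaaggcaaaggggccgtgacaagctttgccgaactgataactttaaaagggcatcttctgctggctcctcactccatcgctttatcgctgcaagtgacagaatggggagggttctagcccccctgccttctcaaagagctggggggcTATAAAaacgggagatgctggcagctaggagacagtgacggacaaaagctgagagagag
Nppb, chr4:147985650-147985949: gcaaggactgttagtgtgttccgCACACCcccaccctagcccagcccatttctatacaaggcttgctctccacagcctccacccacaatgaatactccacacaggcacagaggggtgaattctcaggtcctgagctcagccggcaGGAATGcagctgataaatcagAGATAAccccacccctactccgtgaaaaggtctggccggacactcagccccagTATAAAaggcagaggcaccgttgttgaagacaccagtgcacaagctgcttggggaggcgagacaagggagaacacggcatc
Bmp10, chr6:87428744-87429043: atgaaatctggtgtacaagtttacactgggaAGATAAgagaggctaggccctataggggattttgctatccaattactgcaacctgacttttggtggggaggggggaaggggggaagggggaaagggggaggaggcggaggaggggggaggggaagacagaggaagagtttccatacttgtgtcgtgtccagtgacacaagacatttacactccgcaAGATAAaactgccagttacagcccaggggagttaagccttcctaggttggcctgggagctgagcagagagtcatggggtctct
Hey2, chr10:30842734-30843033: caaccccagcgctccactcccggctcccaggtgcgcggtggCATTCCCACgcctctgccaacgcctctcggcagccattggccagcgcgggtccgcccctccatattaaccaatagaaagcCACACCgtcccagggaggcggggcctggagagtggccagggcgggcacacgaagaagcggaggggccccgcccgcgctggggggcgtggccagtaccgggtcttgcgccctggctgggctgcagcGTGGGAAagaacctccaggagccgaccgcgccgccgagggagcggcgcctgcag

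The *Nppa* window held 1 T-box match, 1 NKX2-5 match and 1 TATAAA, and that of *Nppb* held 1 T-box match, 1 TEAD match, 1 GATA match and 1 TATAAA. *Bmp10* had 2 GATA matches, and *Hey2* had 2 RBPJ matches, of which the distal one overlapped a TEAD match, and 1 T-box match. Among 32851 promoter windows of the same length, 19.05% held the T-box letters, 11.5% the NKX2-5 letters, 11.2% the GATA letters, 14.7% the TEAD letters, 6.38% the RBPJ letters, 1.63% a CArG box and 8.32% TATAAA. A match describes the letters of the window and is not evidence of binding.

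The members were 346 and 469 cells in control libraries 5 and 7, and 123 and 363 cells in *Tie2-cko* libraries 6 and 8. Their median depth was 34509 and 28313 UMIs in the controls, and 70047 and 31964 UMIs in *Tie2-cko* libraries 6 and 8. Library 6 thus had the fewest members and the deepest, and in each library the members were deeper than the low-*Nppa* cells, whose medians were 28754.5, 50444.5, 23517 and 24916 UMIs in libraries 5, 6, 7 and 8. The median mitochondrial share of the members was 4.44%, 4.14%, 4.71% and 4.89%, against 3.79%, 3.72%, 4.01% and 3.98% in the low-*Nppa* cells of libraries 5, 6, 7 and 8. Between 3.25% and 13.0% of the members were among the barcodes with the highest doublet scores of their library, against 7.14% to 16.3% of the low-*Nppa* cells. A single cell barcode was shared between the members of 2 libraries (7 and 8), and between 29 and 62 barcodes were shared by each pair of whole libraries.

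The libraries also stood apart in pairs that cross the genotypes. The summed level of 23 glycolysis genes in the members was 197 and 203 CP10K in libraries 5 and 6 and 124 and 136 CP10K in libraries 7 and 8, with *Eno1* (enolase) at 8.57 and 8.39 CP10K against 2.56 and 2.43 CP10K. Each pair holds a control and a *Tie2-cko* library, and neither the labels nor the methods name the difference between them. Globin RNA, which cardiomyocytes do not make, also varied, and *Hbb-y* in the members was 25.6, 13.4, 9.56 and 2.46 CP10K in libraries 5, 6, 7 and 8.

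The members were chosen by their levels of *Nppa*, *Tnnt2*, *Ttn*, *Myl2* and the excluded markers, so the values of these genes describe that choice. *Nppa* separated them from the low-*Nppa* cells by construction. It averaged 162 and 164 CP10K in control libraries 5 and 7 and 156 and 142 CP10K in *Tie2-cko* libraries 6 and 8, against 2.63 to 3.09 CP10K in the low-*Nppa* cells. Red blood cells, which do not express the gene, had 0.362 to 1.33 CP10K of it, which gives the background of free RNA. The level formed a continuum with no gap at the limit of 50 CP10K. Cells at 50 to 100, 100 to 200 and over 200 CP10K made up 9.84%, 4.36% and 5.15% of the ventricular cells in library 5, and 12.3%, 7.20% and 5.90% in library 7. In libraries 6 and 8 the same shares were 7.97%, 4.40% and 4.53%, and 7.61%, 5.73% and 3.71%. Just outside and just inside the limit the values of other genes overlapped. *Nppb* averaged 0.781, 0.588, 1.79 and 1.66 CP10K at an *Nppa* of 40 to 50, and 0.927, 0.739, 1.85 and 1.08 CP10K at 50 to 60, in libraries 5, 6, 7 and 8.

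**Figure D1:**
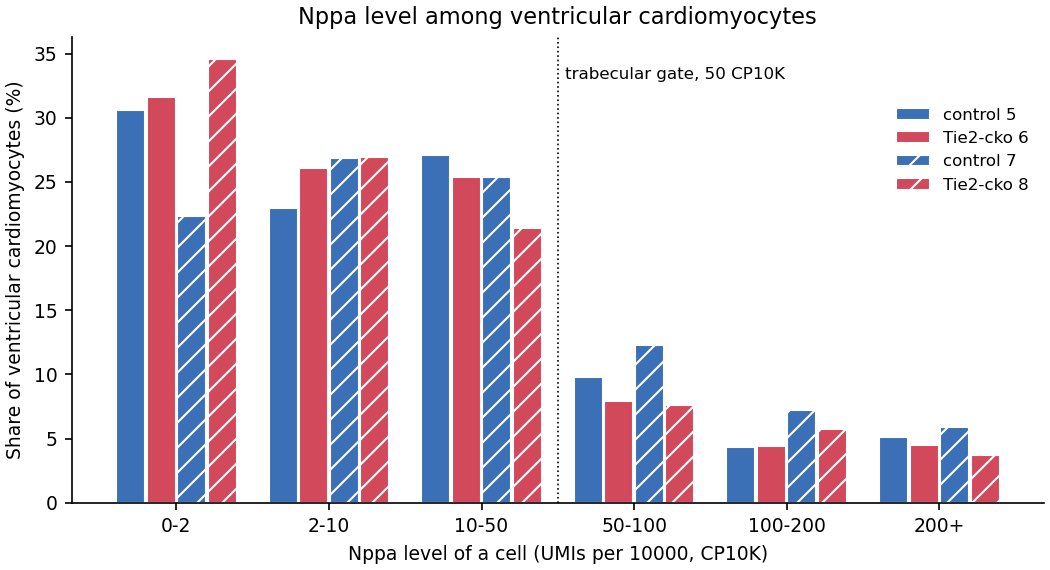
Bars give the share of ventricular cardiomyocytes (%, vertical axis) in 6 ranges of Nppa level (CP10K, horizontal axis), for control libraries 5 and 7 (blue) and Tie2-cko libraries 6 and 8 (red), with hatching for libraries 7 and 8. The dotted line is the limit of 50 CP10K, and cells over 200 CP10K made up 3.71% to 5.90% of a library's ventricular cells.

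The label was checked against its markers. *Nppb* was 3.20 and 4.61 CP10K in members of control libraries 5 and 7 and 3.31 and 3.95 CP10K in *Tie2-cko* libraries 6 and 8, and 0.223, 0.595, 0.160 and 0.218 CP10K in the matched low-*Nppa* cells of 5, 7, 6 and 8. No member value overlapped a low-*Nppa* value, and the mean ratio was 14.3-fold. *Pln*, phospholamban, the inhibitor of the calcium pump, was 7.30, 8.27, 8.66 and 9.21 CP10K in members and 5.43, 6.22, 5.28 and 6.51 CP10K in low-*Nppa* cells of libraries 5, 6, 7 and 8, a mean ratio of 1.43-fold. *Myl2*, the ventricular light chain, was a gate in both classes and did not separate them, with a mean ratio of 1.05-fold. The markers of most other cell types were scarce. The 10 endocardial markers, of which 3 were gates, summed to 0.235 to 0.280 CP10K in the members, with *Ecscr* the most abundant, and *Tek*, the gene of TIE2, was represented by 7, 2, 11 and 3 UMIs in all members of libraries 5, 6, 7 and 8. The 6 epicardial markers summed to 0.109 to 0.185 CP10K and were led by *Wt1*, and the 7 mesenchymal markers to 0.0929 to 0.232 CP10K, led by *Twist1*. The 5 outflow tract markers summed to 0.108 to 0.202 CP10K, led by *Rgs5*. *Bmp4* and *Mybpc1* of that list were gates, so their scarcity was set by the choice of cells. Of the 7 atrial markers, 5 were higher in the members of each library and 0 lower with no level limit, where 21.6% of 12325 genes were higher and 39.2% lower. They summed to 229, 220.3, 198 and 205 CP10K in members and 177, 166, 168 and 171 CP10K in low-*Nppa* cells of libraries 5, 6, 7 and 8. *Myl7* and *Myl4*, light chain genes that the E10.5 ventricle also expresses, made up most of the sum, with mean ratios of 1.20-fold and 1.33-fold. Sarcolipin (*Sln*), *Stard10* and *Vsnl1* were higher too, by means of 3.57-fold, 1.51-fold and 1.88-fold, with *Sln* at 0.00689 to 0.0150 CP10K in members. The part of atrial cells in the values of the members was not tested.

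In the endothelial-gated barcodes of the same hearts, *Tek* was 0.843 and 1.20 CP10K in control libraries 5 and 7 and 0.390 and 0.315 CP10K in *Tie2-cko* libraries 6 and 8. Both mutant libraries lay below both controls, in the direction the labels give. Whether the counted tags lie in the deleted part of the gene is not given in the sources used here.

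Levels in the members were next set beside those in the low-*Nppa* cells of the same library. The *Nppa* gate made this contrast, so its values are descriptions and carry no test. Of 2556 genes with a mean of at least 0.5 CP10K in either class and no role in the gates, 17 (0.665%) were at least 2-fold higher in the members of each library and 8 (0.313%) at least 2-fold lower. A further view by direction alone gave 759 genes (29.7%) higher in each library and 1304 (51%) lower, with a median log2 ratio of -0.08 over all 2556. When cells were classed from 1 random portion of their UMIs and levels taken from the remainder, the counts were 17 and 8, of which 16 and 7 were shared with those above. Both portions came from the same cells, gated on all their UMIs, and members then numbered 344, 124, 468 and 368 in libraries 5, 6, 7 and 8. Like counts could thus be foreseen and add no independent support.

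The 15 genes highest in the members relative to the low-*Nppa* cells were led by *Slit2*, *Nppb* and *Bmp10*. *Slit2*, a guidance ligand at chr5:47983138-48307733, was 0.494, 0.502, 0.664 and 0.930 CP10K in members of libraries 5, 6, 7 and 8 and 0.0505 to 0.0842 CP10K in low-*Nppa* cells, a mean ratio of 10.1-fold. *Bmp10* was 0.553, 0.606, 0.688 and 0.911 CP10K in members of the same libraries and 0.0748 to 0.108 CP10K in low-*Nppa* cells, a mean ratio of 8.12-fold. For both genes each member value exceeded each low-*Nppa* value several times over. *Sema3a*, a semaphorin known for patterning cardiac nerves and conduction tissue, was under the level limit and not among the 15. It was 0.250 to 0.376 against 0.0612 to 0.0845 CP10K (mean ratio 3.95-fold). *Itga6*, a laminin receptor, was 1.63 to 2.11 CP10K in the members against 0.328 to 0.483 CP10K, and *Thbs4*, a matrix thrombospondin, 0.429 to 0.569 against 0.112 to 0.132 CP10K. The tetraspanin gene *Cd9* (mean ratio 3.03-fold), the taurine transporter *Slc6a6* (3.94-fold), the potassium channel gene *Kcnk3* (3.35-fold) and *Tmem163* (3.97-fold) were also among the 15. These were ranked by their smallest ratio in any library, not by the mean ratio.

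Among the other genes of that group was *Cited1*, a transcriptional coregulator on the X chromosome, which was 17.5, 18.5, 16.4 and 16.4 CP10K in members of libraries 5, 6, 7 and 8 and 5.03, 4.38, 4.002 and 4.42 CP10K in low-*Nppa* cells. The imprinted gene *Mest* was 19.7 to 24.6 CP10K in members against 6.41 to 7.85 CP10K. Muscle and cytoskeletal genes of the group were *Mybphl* (mean ratio 2.36-fold), which codes for a myosin-binding protein H relative of the atria and conduction system, *Itgb1bp2* (2.91-fold), which codes for the integrin-binding protein melusin, and *Krt19* (4.19-fold), a keratin, with *Fam49a* at 2.76-fold. *Krt19* varied most among these, at a log2 ratio of 2.36, 2.47, 1.38 and 2.05 in libraries 5, 6, 7 and 8.

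The 15 genes lowest in the members were led by *Id2*. *Id2*, an inhibitor of DNA binding by bHLH factors, was 0.440, 0.394, 0.642 and 0.592 CP10K in members of libraries 5, 6, 7 and 8 and 1.30, 1.45, 2.29 and 2.21 CP10K in low-*Nppa* cells. *Ccnd2*, cyclin D2, was 2.52 to 3.26 CP10K in members and 6.14 to 8.59 CP10K in low-*Nppa* cells, a mean ratio of 2.56-fold in favour of the latter. No member value of either gene reached a low-*Nppa* value. *Igfbp5*, which binds insulin-like growth factors, was lower by a mean of 3.59-fold, *Col2a1*, fibrillar collagen II, by 3.20-fold, *Marcks*, a membrane substrate of protein kinase C, by 2.93-fold and *Ptma*, prothymosin alpha, by 2.12-fold. *Fabp5*, a fatty acid-binding protein, was lower by 2.26-fold and *Tkt*, transketolase of the pentose phosphate pathway, by 2.01-fold. *Sinhcaf*, of the SIN3 corepressor complex, was at 0.490 to 0.514 against 0.958 to 1.08 CP10K, and *Hirip3*, a histone-binding protein, at 0.277 to 0.305 against 0.540 to 0.596 CP10K. *Hist1h1b*, *Hist1h2ab*, *Hist2h2ac*, *Hist1h1e* and *Hist1h4d* completed the 15, with *Hist1h1b* at 0.670 to 1.09 against 1.75 to 3.31 CP10K. These histone genes have near-identical copies and mostly lack a poly(A) tail, so their single values are uncertain.

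**Figure D2:**
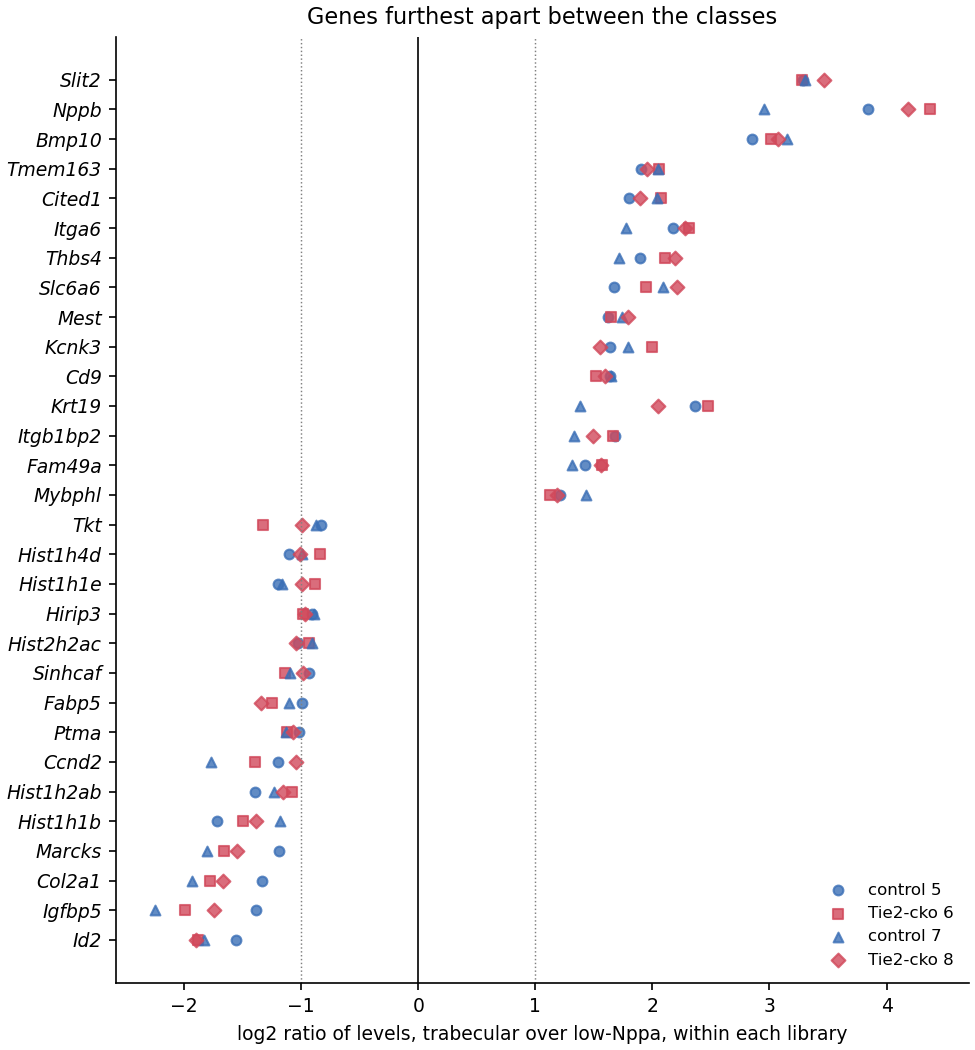
Each point is the log2 ratio of levels, members over low-Nppa cells, within 1 library (horizontal axis), for the 15 genes highest and the 15 lowest in members (rows), with controls in blue and Tie2-cko in red. Dotted lines mark 2-fold, and Slit2, Nppb and Bmp10 lie furthest right, at 2.85 or more in each library.

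A list of 15 genes known for the trabecular layer and conduction lineage was read gene by gene, since 7 of its members were under 0.5 CP10K in both classes. *Gja5*, connexin 40 of the trabeculae and later of the Purkinje fibres, was 0.256, 0.275, 0.240 and 0.271 CP10K in members and 0.0755, 0.0852, 0.0748 and 0.0961 CP10K in low-*Nppa* cells of libraries 5, 6, 7 and 8. *Irx3*, a homeobox factor that promotes *Gja5* in the conduction system, was 0.266 to 0.318 against 0.102 to 0.156 CP10K, and its relatives *Irx2* and *Irx1* had mean ratios of 2.66-fold and 2.17-fold. *Smpx*, a small muscle protein gene, was 1.54-fold higher. Of 14 genes of the list that were not gates, 11 were higher in each library, where 21.6% of the 12325 genes with enough UMIs for a test were higher and 39.2% lower with no level limit, and *Id2* and *Kcne1* (a potassium channel subunit) were lower in each. *Cpne5* was 0.309 to 0.381 CP10K in members and 0.339 to 0.424 CP10K in low-*Nppa* cells, and these ranges overlapped.

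The 6 genes of the compact wall went the other way or did not separate the classes. *Hey2* was 0.195, 0.202, 0.204 and 0.204 CP10K in members and 0.357, 0.482, 0.374 and 0.470 CP10K in low-*Nppa* cells of libraries 5, 6, 7 and 8. *Mycn*, which drives growth of the compact wall, was 0.161, 0.109, 0.147 and 0.171 CP10K in members and 0.307, 0.367, 0.387 and 0.402 CP10K in low-*Nppa* cells. *Tbx20*, *Prdm16* and *Ccnd1* were lower in the members of each library, by means of 1.48-fold, 1.61-fold and 1.25-fold. *Vegfa*, the vascular growth factor gene, was 0.197 to 0.321 CP10K in members and 0.198 to 0.310 CP10K in low-*Nppa* cells and overlapped. The low-*Nppa* class also held RNA that marks other regions. *Rspo3*, a Wnt agonist used here as a marker of the inflow and canal region, was 0.238, 0.0912, 0.635 and 0.303 CP10K in low-*Nppa* cells and 0.0351, 0.0079, 0.0373 and 0.0452 CP10K in members of libraries 5, 6, 7 and 8. *Tbx2* and *Tbx3*, repressors of the chamber program, were also lower in the members of each library, by means of 3.13-fold and 2.96-fold. The list for that region had 4 genes that were not gates, and 3 of them were lower in each library. The other, *Hcn4*, was higher in each and the most abundant of the list in members, at 0.172 CP10K. With no level limit, 21.6% of 12325 genes were higher and 39.2% lower. The part of such cells in the ratios given here was not tested.

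Thinning each cell to 10000 UMIs gave the shares of cells in which a gene was seen at equal depth. *Nppb* was seen in 63.3%, 62.8%, 69.7% and 73.4% of members and in 14.2%, 10.9%, 24.1% and 13.1% of low-*Nppa* cells of libraries 5, 6, 7 and 8, and in 1.04% to 5.92% of red blood cells, which gives the background of free RNA. Without thinning it was seen in 83.5%, 86.2%, 86.6% and 86.5% of members. *Bmp10* was seen in 37.2% to 46.2% of thinned members, 5.60% to 8.42% of low-*Nppa* cells and 0% to 1.22% of red blood cells. *Gja5* was seen in 19.05% to 25.5% of thinned members, 5.54% to 8.03% of low-*Nppa* cells and 0% to 0.721% of red blood cells. *Hey2* was seen in 13.3% to 16.7% of members, 27.9% to 38.1% of low-*Nppa* cells and 0.208% to 1.83% of red blood cells. In each library 5 to 10 members had fewer than 10000 UMIs and were left out.

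The contractile genes were higher in the members, mostly by modest ratios, where 29.7% of all measured genes were higher in each library and 51% lower. Of 9 measured genes of the thick filament and light chains, 9 were higher in each library, with a median log2 ratio of 0.33. *Myl1*, an embryonic light chain, was 9.85 to 12.3 CP10K in members and 4.24 to 5.67 CP10K in low-*Nppa* cells, whereas *Myl7* (mean ratio 1.20-fold) and most of the others differed less. Of 21 measured genes of the thin filament and Z disc, 16 were higher and 3 lower in each library (median log2 0.29). *Tnni3*, the mature cardiac troponin I, was 18.96 to 21.6 against 10.8 to 12.1 CP10K, while *Tnni2*, the fast skeletal form, was lower by a mean of 2.15-fold. *Ankrd1*, a stretch-responsive Z-disc protein gene, varied with the library, at a log2 ratio of 1.43, 2.35, 0.57 and 1.55 in libraries 5, 6, 7 and 8.

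Calcium handling showed 8 of 11 measured genes higher and 1 lower in each library (median log2 0.39), beside the same 29.7% and 51%. *Trdn*, triadin of the release complex, was 2.14, 2.89, 3.41 and 3.66 CP10K in members and 1.09, 1.28, 1.73 and 1.86 CP10K in low-*Nppa* cells of libraries 5, 6, 7 and 8. *Casq2*, cardiac calsequestrin, lay under the level limit, at 0.110 to 0.168 against 0.0180 to 0.0437 CP10K. Among connexins, *Gja1* had a mean ratio of 1.51-fold and *Gjc1*, which codes for connexin 45, was lower by a mean of 1.55-fold.

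Genes of DNA replication and mitosis were lower in the members, with 1 exception among those measured. Of 43 S-phase genes, 16 were measured and 16 of them were lower in the members of each library, with a median log2 ratio of -0.50, and without a level limit 43 of 43 were lower in each, against 39.2% of the 12325 genes. Of 55 genes of G2 and mitosis, 30 were measured, 29 were lower in each library and *Tubb4b*, a tubulin gene, was higher, with a median of -0.46, where 51% of all 2556 measured genes were lower in each library. *Mki67*, the proliferation antigen, was 0.780, 0.894, 0.876 and 0.745 CP10K in members and 1.30, 1.30, 1.22 and 1.27 CP10K in low-*Nppa* cells of libraries 5, 6, 7 and 8. *Top2a*, the topoisomerase of dividing cells, was seen in 44.8% to 51.7% of thinned members and 57.8% to 65.5% of thinned low-*Nppa* cells. Red blood cells of this stage divide too and held it in 70.7% to 73.4% of cells, so they give no background for this gene. The cell cycle inhibitor gene *Cdkn1c* was 18.5 to 26.3 CP10K in members and 17.3 to 23.8 CP10K in low-*Nppa* cells, ranges that overlapped, although it was higher within each library by a log2 ratio of 0.06 to 0.14.

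Energy metabolism also differed in composition. Of 57 measured genes of oxidative phosphorylation, 55 were higher in the members of each library and 0 lower (median log2 0.23), against 29.7% and 51% of all measured genes. Their summed level was 599, 620, 664 and 667 CP10K in members and 513, 517, 566 and 591 CP10K in low-*Nppa* cells of libraries 5, 6, 7 and 8. Of 10 measured genes of fatty acid use and creatine kinases, 9 were higher in each library, among them *Ckb* (mean ratio 1.71-fold), *Fabp3* (1.45-fold) and the myoglobin gene *Mb* (2.18-fold). *Ckmt2*, mitochondrial creatine kinase, was under the level limit, with 0.128 to 0.189 CP10K in members and 0.0224 to 0.0256 CP10K in low-*Nppa* cells. Glycolysis was mixed, with 4 of 18 measured genes higher and 9 lower in each library, beside 29.7% and 51% of all measured genes. *Hk1* (hexokinase 1) and *Pgam2* (muscle phosphoglycerate mutase) were 1.39-fold and 1.41-fold higher, and *Slc2a1* (glucose transporter 1) and *Eno1* were lower by 1.40-fold and 1.38-fold. The mitochondrial UMI share of the members was also higher (above), and its part in these ratios was not tested.

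**Figure D3:**
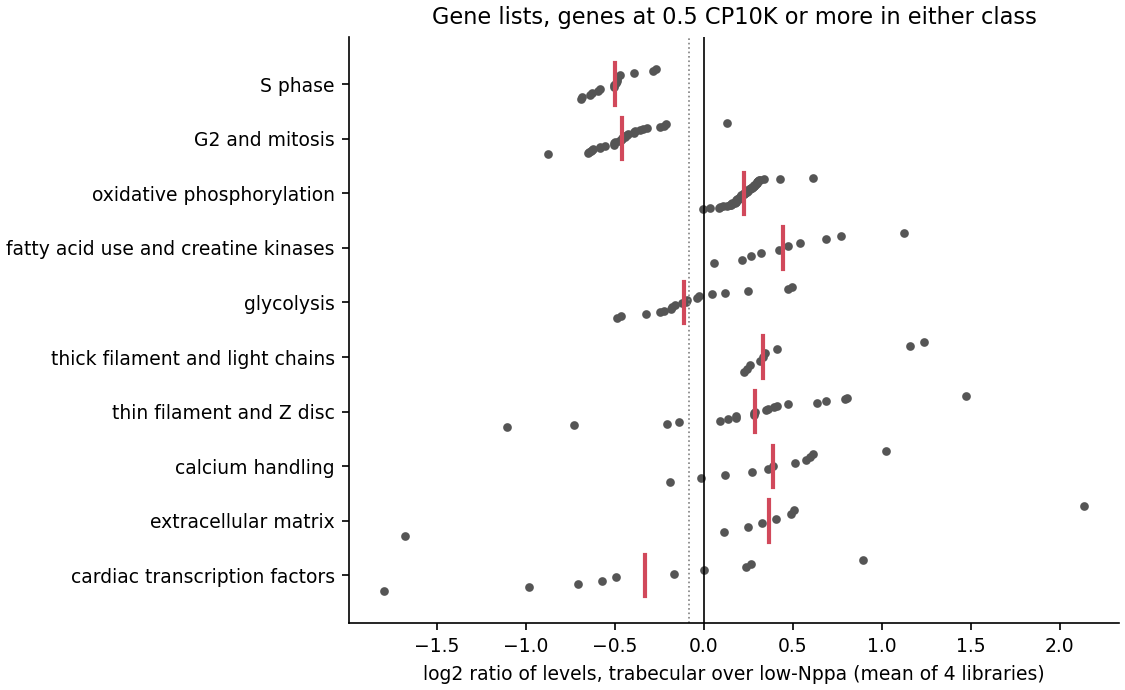
Each grey point is a gene with at least 0.5 CP10K in either class, placed at its log2 ratio of levels, members over low-Nppa cells, averaged over 4 libraries (horizontal axis), by gene list (rows). Red bars are list medians and the dotted line is the median of all 2556 genes, -0.08, and the S phase and G2 and mitosis medians lie at -0.50 and -0.46.

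Of the cardiac transcription factors, 10 of 32 were measured, 3 higher and 6 lower in each library, shares near the 29.7% and 51% of all measured genes. *Hopx*, a homeodomain-only cofactor, was 1.56, 2.38, 3.69 and 4.29 CP10K in members and 0.885, 1.16, 2.06 and 2.32 CP10K in low-*Nppa* cells of libraries 5, 6, 7 and 8, so it differed as much between libraries as between classes. *Tbx5*, a T-box activator of *Nppa* and *Gja5*, was 0.413 to 0.5005 against 0.241 to 0.304 CP10K. *Hand1*, a factor of the left ventricle, was 1.20-fold higher and *Hand2* 1.63-fold lower in the members.

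Ligands that cardiomyocytes send to the endocardium were measured for 6 of 25 genes, 4 higher and 1 lower in each library, against 29.7% and 51% of all measured genes. *Angpt1*, the ligand of TIE2, was 0.829 and 1.05 CP10K in members of control libraries 5 and 7 and 0.885 and 1.17 CP10K in *Tie2-cko* libraries 6 and 8, against 0.582 to 0.866 CP10K in low-*Nppa* cells, a mean ratio of 1.35-fold. *Bmp7* and *Pdgfa* had mean ratios of 1.31-fold each, and *Mdk*, midkine, was lower by 1.48-fold. Of 28 receptors for endocardial signals, only *Nrp1* passed the level limit. The neuregulin receptors *Erbb2* and *Erbb4* were 1.26-fold and 1.18-fold lower in the members, and *Epha4*, an ephrin receptor, was 3.02-fold higher at 0.143 to 0.182 CP10K. *Corin*, the protease that activates the natriuretic peptides, was 0.0529 to 0.0826 CP10K in members and 0.0144 to 0.0359 CP10K in low-*Nppa* cells. Of 8 measured matrix genes, 7 were higher in each library, beside the same 29.7%, including *Sparc*, *Fbln1*, *Col4a1* and *Col4a2*, and *Col2a1* was lower. *Vcan*, versican of the cardiac jelly, was 3.89 to 5.51 CP10K in members and 3.04 to 4.53 CP10K in low-*Nppa* cells.

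The members were not uniform. Across 6 ranges of *Nppa* from under 2 to over 200 CP10K, the mean *Slit2* over the 4 libraries was 0.0554, 0.0740, 0.133, 0.273, 0.501 and 1.59 CP10K. *Bmp10* was 0.442 ± 0.122 CP10K (SD, n = 4) at an *Nppa* of 50 to 100 and 1.23 ± 0.264 CP10K over 200. *Cited1* went from 13.4 to 24.4 CP10K and *Nppb* from 1.56 to 7.89 CP10K between the same ranges. *Gja5*, by contrast, was 0.242 and 0.301 CP10K there, most of its difference lying below the *Nppa* limit. *Hey2* was 0.291 CP10K at 50 to 100 and 0.0669 CP10K over 200, and *Mycn* 0.201 and 0.0645 CP10K. The summed S-phase genes were 19.9 and 10.3 CP10K, and those of G2 and mitosis 67.8 and 37.95 CP10K, while low-*Nppa* cells under 2 CP10K had 24.2 and 77.9 CP10K. The ranges were set by *Nppa*, so the order is a description. Median mitochondrial share also went with *Nppa*, from 4.31%, 3.81%, 4.32% and 4.41% at 50 to 100 CP10K to 5.18%, 4.66%, 5.38% and 5.74% over 200 in libraries 5, 6, 7 and 8, and its part was not tested.

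**Figure D4:**
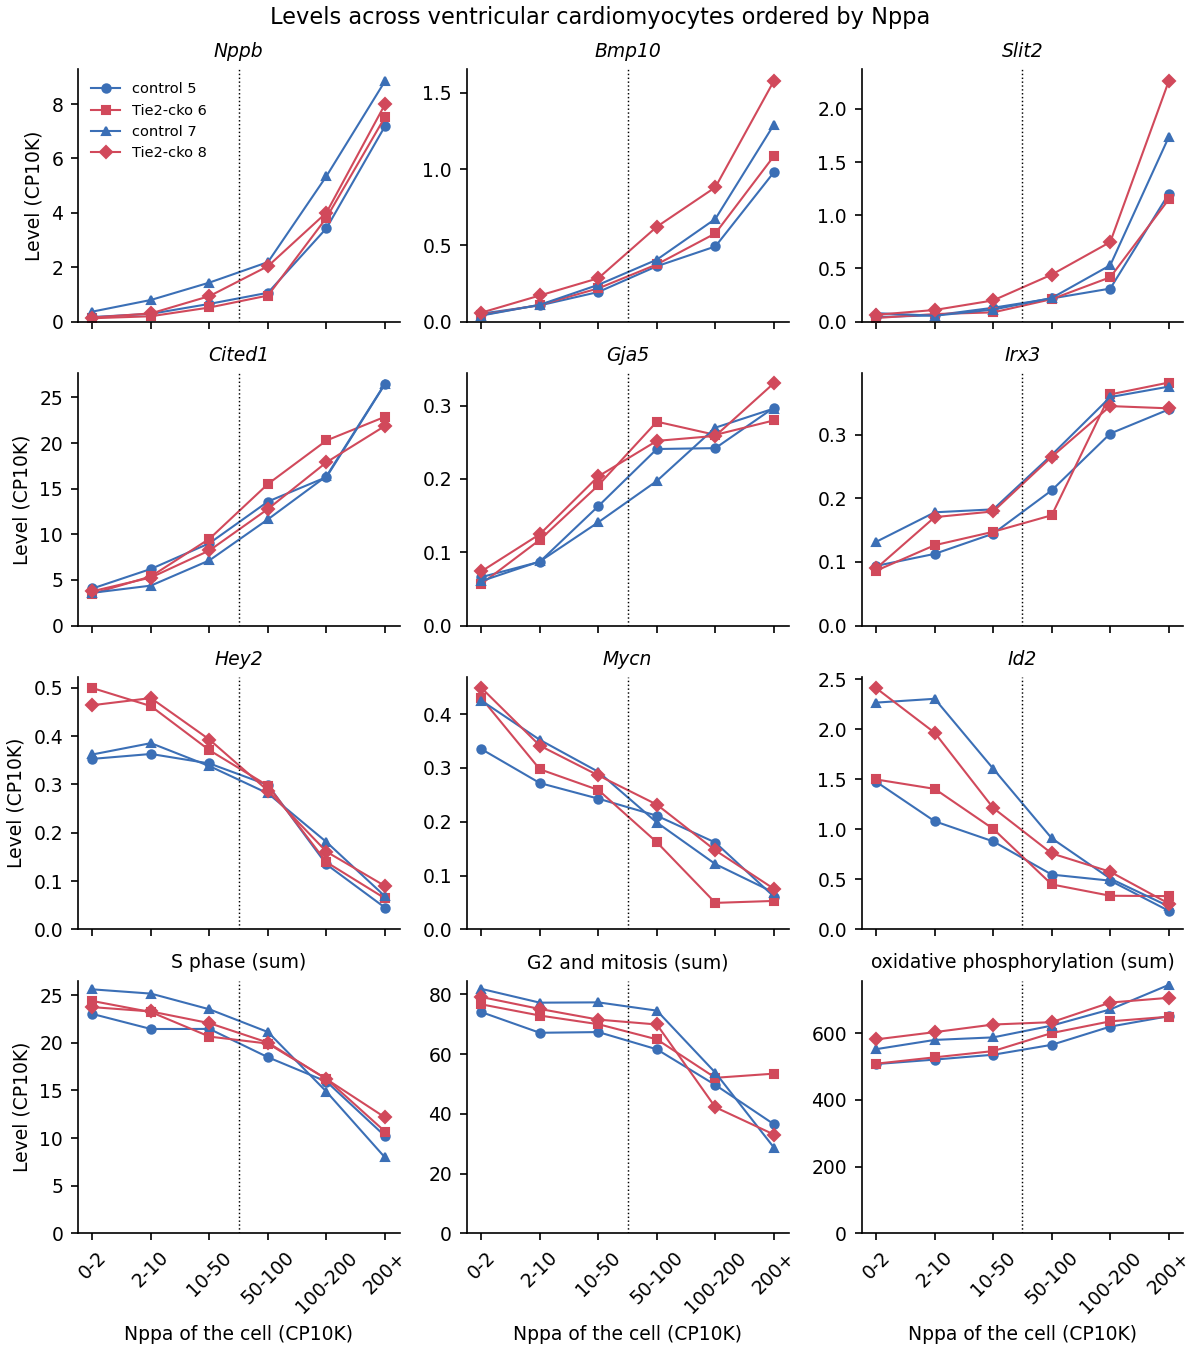
Lines give the level (CP10K, vertical axes) of 9 genes and the summed level of 3 gene lists across 6 ranges of the cells' own Nppa (CP10K, horizontal axes), 1 line a library, with controls in blue and Tie2-cko in red. Right of the dotted line are the members, in which mean Slit2 went from 0.273 to 1.59 CP10K and the S-phase sum from 19.9 to 10.3 CP10K.

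Within the members, thinned to 10000 UMIs, cells with a UMI of *Nppb* had more *Nppa* than cells without. Mean *Nppa* was 198, 199, 186 and 160 UMIs in cells with *Nppb* and 103, 105, 103 and 100 UMIs in cells without, in libraries 5, 6, 7 and 8. Cells with a UMI of *Bmp10* likewise averaged 206, 212, 213 and 170 UMIs of *Nppa*, against 136, 136, 129 and 122 UMIs without. Cells with *Hey2* went the other way, at 103, 93.0, 131 and 108 UMIs of *Nppa* against 175, 175, 166 and 152 UMIs. *Hand1* split the members differently. Members with a UMI of *Hand1* averaged 2.52, 1.97, 3.22 and 3.85 UMIs of *Nppb*, against 4.52, 5.73, 5.70 and 4.597 UMIs without it, and 6.91, 7.75, 7.59 and 8.35 UMIs of *Pln* against 8.37, 9.92, 11.1 and 10.95 UMIs. *Cited1* was at 19.4, 20.5, 19.4 and 18.6 UMIs with *Hand1* and 16.4, 14.9, 13.2 and 14.8 UMIs without. The direction of these differences was shared by the 4 libraries. The part of the cells' depth before thinning in them was not tested.

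Genotype was then compared over the 4 libraries, to ask whether loss of endocardial TIE2 went with a difference in the neighbouring muscle. Members made up 19.4% of ventricular cardiomyocytes in control library 5 (95% Wilson interval 17.6% to 21.2%) and 25.4% in control library 7 (23.5% to 27.4%). They made up 16.9% in *Tie2-cko* library 6 (14.3% to 19.8%) and 17.1% in *Tie2-cko* library 8 (15.5% to 18.7%). The mean was 22.4% ± 4.28 (SD, n = 2) in controls and 17.0% ± 0.115 (SD, n = 2) in *Tie2-cko*, a difference of -5.40 percentage points with an exact permutation p of 0.33 (two-sided), which is the smallest that 2 against 2 libraries can give. The groups did not overlap, but without control library 7 the difference was -2.37 points, and with at most 5% mitochondrial UMIs it was -3.61 points and the groups overlapped (exact p = 0.667). The intervals cover counting error only. In a share, fewer trabecular cells and less *Nppa* per cell cannot be told apart.

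Gene levels in the members were compared with edgeR's quasi-likelihood test on UMIs summed per library. Of 12325 genes tested, 0 (0%) passed a Benjamini-Hochberg adjusted p of 0.05, with 87 at an unadjusted p under 0.05, and DESeq2 called 1, *Hbb-bs*. With a term for libraries 5 and 6 against 7 and 8, which stood apart above, the same test called 8 genes (0.0649%) and had 589 at an unadjusted p under 0.05. Higher in *Tie2-cko* were *Rpl29*, a ribosomal protein gene, by a log2 fold change of 0.59 ± 0.05 (SE), and *Cck*, cholecystokinin, by 0.96 ± 0.09 (SE), each with an edgeR adjusted p of 0.00209. *Cck* was 0.523 and 0.279 CP10K in control libraries 5 and 7 and 1.10 and 0.510 CP10K in *Tie2-cko* libraries 6 and 8, so the groups overlapped while each pair differed in 1 direction. Lower in *Tie2-cko* were 5 globin genes (*Hbb-bs*, *Hba-a1*, *Hbb-y*, *Hbb-bh1* and *Hba-a2*), whose RNA varied between libraries as given above, and *Tagln*, transgelin of actin filaments. *Tagln* was 11.96 and 14.6 CP10K in controls and 9.17 and 10.02 CP10K in *Tie2-cko* (log2 fold change -0.48 ± 0.06, SE, edgeR adjusted p 0.0146). With the term the log2 fold change was 0.26 ± 0.08 (SE) for *Bmp10*, 0.25 ± 0.10 (SE) for *Slit2*, 0.11 ± 0.07 (SE) for *Angpt1* and -0.37 ± 0.11 (SE) for *Timp3*, with edgeR adjusted p between 0.816 and 0.987. The term was proposed from these data, so its calls are an alternative to the fit without it. Without that term the values were as follows. Both *Tie2-cko* libraries lay above both controls for 11.2% of the genes and below both for 8.41%, 19.6% in all. *Bmp10* differed by a log2 fold change of 0.27 ± 0.20 (SE) and *Slit2* by 0.28 ± 0.27 (SE), with groups that overlapped although *Tie2-cko* was the higher library within 5 and 6 and within 7 and 8, and an edgeR adjusted p of 1.00 for each. *Nppb* (-0.12 ± 0.18, SE), *Cited1* (0.02 ± 0.13) and *Angpt1* (0.11 ± 0.18) overlapped too. *Nppa* was lower in both mutant libraries, by a log2 fold change of -0.15 ± 0.10 (SE, edgeR adjusted p 1.00), in cells gated on it.

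The 5 genes with the smallest p among those higher in both *Tie2-cko* libraries were *Rpl29*, *Uts2b*, *D130017N08Rik*, *Phactr3* and *Itih5*, none of which passed without the term. *Rpl29* was 10.9 and 11.1 CP10K in control libraries 5 and 7 and 16.6 and 17.0 CP10K in *Tie2-cko* libraries 6 and 8. Its log2 fold change was 0.59 ± 0.11 (SE, edgeR adjusted p 1.00), and ribosomal protein genes have many processed copies that can share reads. *Phactr3*, a regulator of protein phosphatase and actin, was 0.148 and 0.131 CP10K in controls and 0.207 and 0.221 CP10K in *Tie2-cko*. *Uts2b*, a urotensin-related peptide gene, rested on 6 and 9 UMIs in the controls and 40 and 30 UMIs in *Tie2-cko*. On the lower side were *Hbb-bs*, *Dusp8*, *Fn1*, *Col3a1* and *Atf3*, none of which passed without the term. *Fn1*, fibronectin, was 0.324 and 0.334 CP10K in controls and 0.208 and 0.229 CP10K in *Tie2-cko* (log2 fold change -0.61 ± 0.14, SE, edgeR adjusted p 1.00). *Col3a1*, fibrillar collagen III, rested on 98 and 87 UMIs in controls and 23 and 45 UMIs in *Tie2-cko*. *Hbb-bs* is a globin gene, and globin RNA differed between libraries as given above.

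The lists described here held no called gene between the genotypes, with or without the term, apart from the red blood cell markers with it. Of 43 S-phase genes tested, 0 passed, 6 lay above in both *Tie2-cko* libraries and 0 below, with a median log2 fold change of 0.06, beside 0.00 over all genes. Their summed level in the members was 15.7 and 16.3 CP10K in control libraries 5 and 7 and 16.7 and 17.1 CP10K in *Tie2-cko* libraries 6 and 8. Of 55 genes of G2 and mitosis, 0 passed and the sums overlapped, at 52.4 and 58.1 CP10K in controls and 59.1 and 53.0 CP10K in *Tie2-cko*. Of 34 matrix genes tested, 0 passed, 0 lay above and 8 below in both *Tie2-cko* libraries. Among 23 tested genes of the thin filament and Z disc, 0 passed, 0 lay above and 5 below. For 58 genes of oxidative phosphorylation, 0 passed, 10 lay above and 1 below. Over all genes tested, 11.2% lay above and 8.41% below. *Vcan* was 3.89 and 4.56 CP10K in controls and 3.90 and 5.51 CP10K in *Tie2-cko*, and *Timp3*, an inhibitor of matrix proteases, was 0.148 and 0.305 CP10K in controls and 0.126 and 0.227 CP10K in *Tie2-cko*, both overlapping. *Cdkn1c* was 22.4 and 18.5 CP10K in controls and 26.3 and 19.99 CP10K in *Tie2-cko* and overlapped as well, although *Tie2-cko* was the higher library within 5 and 6 and within 7 and 8. With the term for these pairs the log2 fold change was 0.15 ± 0.05 (SE, edgeR adjusted p 0.872) for *Cdkn1c* and 0.12 ± 0.07 (SE, edgeR adjusted p 0.987) for *Vcan*.

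**Figure D5:**
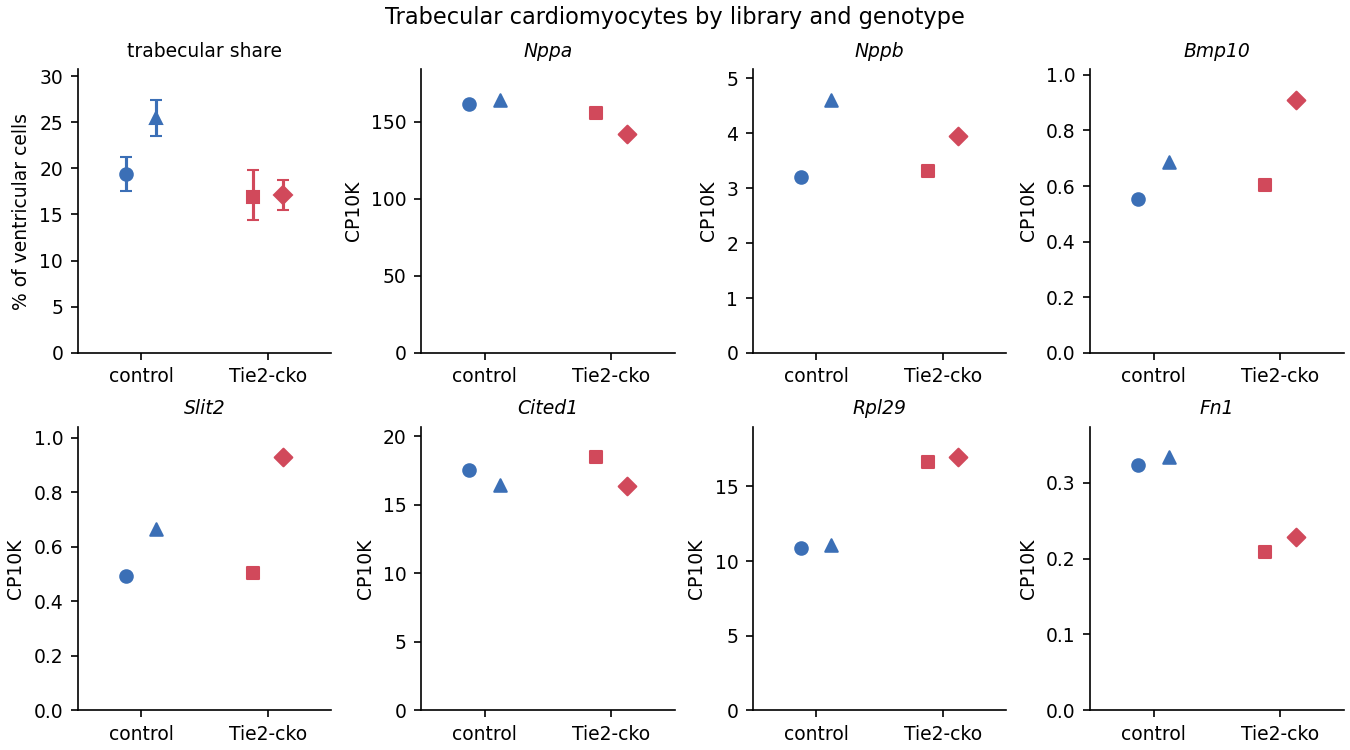
The upper left panel gives the trabecular share of ventricular cardiomyocytes (%, with 95% Wilson intervals) and the others the level in the members (CP10K, vertical axes), by genotype (horizontal axes), 1 point a library, with circles and triangles for control libraries 5 and 7 and squares and diamonds for Tie2-cko libraries 6 and 8. Nppb, Bmp10, Slit2 and Cited1 overlapped between the genotypes. Rpl29 and Fn1 were picked from genes whose groups did not overlap, which were 19.6% of 12325 genes tested. Without a term for libraries 5 and 6 against 7 and 8, 0 genes passed the adjusted threshold.

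Whether the genotype difference was unlike in members and low-*Nppa* cells was tested as an interaction with the library as a block. Of 13375 genes, 0 (0%) passed an edgeR adjusted p of 0.05, with 569 at an unadjusted p under 0.05, and DESeq2 called 0. A p that misses the threshold with 2 libraries a group does not show that both classes responded alike. The 5 smallest p in favour of *Tie2-cko* members belonged to *Nrgn*, *Hbb-bt*, *Nppb*, *Lmod1* and *Uts2b*. *Nrgn*, neurogranin, was 0.214 and 0.212 CP10K in control members and 0.262 and 0.363 CP10K in *Tie2-cko* members, and 0.0472, 0.0670, 0.0288 and 0.0481 CP10K in the low-*Nppa* cells of libraries 5, 7, 6 and 8 (interaction 1.10 ± 0.18 on the log2 scale, SE, edgeR adjusted p 0.0902). For *Nppb* the interaction was 0.91 ± 0.17 (SE, edgeR adjusted p 0.199) and the low-*Nppa* level of control library 7, at 0.595 CP10K, was the highest of the 4. *Lmod1*, leiomodin 1 of actin filaments, had 0.85 ± 0.16 (SE, edgeR adjusted p 0.199). In the other direction were *Bcl11a*, *H19*, *Ptn*, *Col3a1* and *Ly6h*. *Ptn*, pleiotrophin, had a member to low-*Nppa* log2 ratio of 0.15 and 0.07 in controls and -0.97 and -0.28 in *Tie2-cko*, and *Col3a1* 0.18 and 0.16 against -1.12 and -0.70, with edgeR adjusted p of 0.33 and 0.46. *H19*, an imprinted noncoding RNA, was 3.20 and 2.35 CP10K in control members and 2.40 and 2.22 CP10K in *Tie2-cko* members.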

How the data were processed

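Tissue dissected at E10.5, named in the study's methods as the entire cardiogenic region, was profiled by 10x Genomics single-cell RNA sequencing. The 4 libraries were grouped by the genotype in their labels. The deposited values are UMI counts per gene and barcode, produced by the authors in Cell Ranger (version 6.1.2 by the file header, mm10 by the submitters' processing notes, where the study's methods name an older version) and did not normalize; no barcode held under 500 UMIs. Counts were not corrected for free RNA. From them, cells were gated as given above, UMIs were summed per library and class, and levels were expressed per 10000 UMIs. The members and the gene lists were chosen with earlier results of these data known. Within-library log2 ratios used 0.5 UMIs as prior. Genotype and the class by genotype term (library as block) were tested with edgeR 4.0.16 (quasi-likelihood, TMM, filterByExpr, Benjamini-Hochberg over all genes). On simulated data run beforehand, both tests missed many of the changes put in, and the class by genotype test missed most of them. DESeq2 1.42.0, other filters and gates, and leaving out each library were alternatives. Doublets were not removed in the main analysis, and Scrublet scores (scanpy 1.11.5) were used in an alternative.

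Named genes were the gate and marker genes and *Tek*, the 15 genes with the largest smallest-of-4 ratio and the 15 with the smallest largest-of-4 ratio, the 5 smallest p in each direction where no gene passed (for genotype, with both *Tie2-cko* libraries on 1 side), and up to 4 examples of a list, or more where a list was read gene by gene. Examples other than the most abundant were chosen after their values were seen. Of 32285 gene identifiers, 32158 were placed by GENCODE M21, and promoters are from RefSeq. A symbol shared by several identifiers was left out of the lists.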

Additional observations from a re-analysis of the deposited data

How the results depend on the processing

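The genotype test of the members called 0 genes also with RLE size factors, with at most 5% mitochondrial UMIs, with *Nppa* limits of 25 and 100 CP10K, with the exclusion gates in CP10K and with the highest doublet scores removed. It called 13 genes without the filter on low counts, 1 with DESeq2, and 8 with a term for libraries 5 and 6 against 7 and 8. Leaving out 1 library gave 0 to 40 calls, with 1, 6, 40 and 0 as libraries 5, 6, 7 and 8 were dropped in turn, and the lone library left in a group was assumed to vary like the other group. The class by genotype test called 29 genes without the filter, 5 with at most 5% mitochondrial UMIs, 5 with the *Nppa* limit at 25 CP10K, and 0 to 69 with 1 library left out (69, 0, 16 and 13 when libraries 5, 6, 7 and 8 were dropped in turn). The difference in share kept its sign in every alternative, from -8.43 points without control library 5 to -2.12 points with the limit at 100 CP10K. Genes at least 2-fold higher in the members numbered 11 with at most 5% mitochondrial UMIs, 9 with the limit at 25, 39 with the limit at 100 and 55 with a level of at least 0.1 CP10K, and genes at least 2-fold lower numbered 3, 21 and 25 with the limit at 25, at 100 and with a level of at least 0.1 CP10K. Leaving out 1 library gave 15 to 20 and 8 to 10. The causes were not tested. No stated pairing was available, since the control and *Tie2-cko* libraries share no replicate number. No source used here says which of them share a lane. The term for libraries 5 and 6 against 7 and 8 is a block of 1 control and 1 *Tie2-cko* each, taken from differences in these data and not from a stated pairing. Depth limits genes such as *Uts2b*, with 6 to 40 UMIs in the members of a library.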

Other observations

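Red blood cell RNA in the members varied between libraries. The 5 red blood cell markers summed to 53.9, 29.2, 19.3 and 4.98 CP10K in members of libraries 5, 6, 7 and 8 and to 99.6, 25.5, 26.2 and 6.69 CP10K in the low-*Nppa* cells. Members thus had less globin RNA than low-*Nppa* cells in libraries 5, 7 and 8 and more in library 6.

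Immediate early genes, which respond within minutes to handling of tissue, were measured for 4 of 14 and 4 were lower in the members of each library, with a median log2 ratio of -0.31, where 51% of all measured genes were lower in each library. *Jun* was 0.856, 0.685, 0.783 and 0.453 CP10K in members and 0.956, 1.07, 1.63 and 0.757 CP10K in low-*Nppa* cells of libraries 5, 6, 7 and 8.

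*Rgs5*, a regulator of G-protein signalling listed here as an outflow tract marker, was 0.0680, 0.0484, 0.0510 and 0.122 CP10K in members of libraries 5, 6, 7 and 8 and 0.0216, 0.0124, 0.0180 and 0.0225 CP10K in low-*Nppa* cells, while *Sema3c* of the same list was lower in the members of each library.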
